A study of Mus musculus with 48 samples.

Results

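The 10 genes Kdr, Flt1, Vegfa, Nrp1, Tek, Cldn5, Pecam1, Cdh5, Higd1b and Ly6g6f were followed across the brains of stressed and non-stressed mice. They were taken by name, and all 10 were present among the 14976 genes listed in both tissues and passed the filter on low counts. The question was whether a change of Kdr was its own or one of all vessel genes. Kdr and Ly6g6f were selected on their stress changes in frontal cortex, measured in these same libraries, so stress values there describe the choice and carry no test. Higd1b is given without a test throughout, since the comparison in which it was noticed is not recorded in the sources used here. The mice were male C57BL/6, an inbred strain, on postnatal day 63 to 91. They were non-stressed or stressed and received vehicle or esomeprazole, a proton pump inhibitor given against stomach acid. There were 3 daily sessions, an injection into the abdominal cavity came 60 minutes after each, and tissue was collected 12 hours after the last. A dose of 2 mg/kg stands in the design text, while the treatment protocol prints 2 g/kg. Hippocampus and frontal cortex were sequenced in 4 conditions with 6 mice each, giving 8 groups and 48 libraries from 24 mice. No genetic modification is named, and within a tissue the groups differ by session and injection alone, per the labels.

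Blood vessels of the brain are lined by endothelial cells joined by tight junctions, the basis of the blood-brain barrier, and wrapped by mural cells (pericytes and smooth muscle). Vegfa encodes the growth factor VEGF-A, made largely by neurons and glia. Kdr (VEGFR2) is its main signalling receptor on endothelial cells, Flt1 (VEGFR1) binds the ligand tightly and limits its action, and Nrp1 is a co-receptor also used by axons for semaphorins. Tek (TIE2) is the receptor for angiopoietins. Cldn5 builds the tight junctions, Cdh5 (VE-cadherin) the adherens junctions, and Pecam1 is an adhesion molecule of endothelial cells and platelets. Higd1b is a marker of pericytes in brain, and Ly6g6f encodes an immunoglobulin-type surface protein of the Ly6 locus known from platelets in humans.

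Depth and tissue content set limits on all values below. Gene reads per library numbered 25.3 to 42.0 M (hippocampus) and 27.6 to 41.5 M (frontal cortex). Reads that fell in no annotated feature made up 5.03% to 20.6% of a library in hippocampus and 4.50% to 19.9% in frontal cortex, and the share was under 12% in 5 and 7 libraries. Markers of striatal neurons were high in 5 hippocampal libraries, all stressed (4 of them with esomeprazole). Low olfactory bulb markers set 7 libraries of frontal cortex apart, 4 of them non-stressed vehicle and 1 from each other group. The hippocampal markers Prox1, C1ql2 and Spink8 had medians of 1334, 2006 and 680 normalised reads in hippocampus against 144, 19.5 and 30.6 in frontal cortex, although single hippocampal libraries reached down to 199, 35.3 and 28.0, within the range of frontal cortex. In bulk tissue a smaller number of vessel cells and less RNA per vessel cell cannot be told apart.

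The stretches upstream of Kdr and Flt1, receptors of the same ligand that differed in size of change, and of Ly6g6f, which differed most, are printed here. Each is the 250 bases before the RefSeq start on GRCm38.p6, read on the gene's own strand (minus for all 3). They lie at chr5:75978456-75978705, chr5:147726012-147726261 and chr17:35085596-35085845. Capitals mark GGGCGG or CCGGAA on either strand (the reverse strand reads CCGCCC and TTCCGG).
Kdr: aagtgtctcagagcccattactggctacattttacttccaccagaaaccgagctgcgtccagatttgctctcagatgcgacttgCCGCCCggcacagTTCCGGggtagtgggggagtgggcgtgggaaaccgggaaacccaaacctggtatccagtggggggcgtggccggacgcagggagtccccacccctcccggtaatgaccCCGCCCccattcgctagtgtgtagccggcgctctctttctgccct
Flt1: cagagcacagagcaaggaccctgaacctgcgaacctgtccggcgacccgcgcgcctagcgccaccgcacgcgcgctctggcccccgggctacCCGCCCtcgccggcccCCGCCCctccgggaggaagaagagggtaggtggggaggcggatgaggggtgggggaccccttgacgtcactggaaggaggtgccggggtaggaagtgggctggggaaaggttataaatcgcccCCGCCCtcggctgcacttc
Ly6g6f: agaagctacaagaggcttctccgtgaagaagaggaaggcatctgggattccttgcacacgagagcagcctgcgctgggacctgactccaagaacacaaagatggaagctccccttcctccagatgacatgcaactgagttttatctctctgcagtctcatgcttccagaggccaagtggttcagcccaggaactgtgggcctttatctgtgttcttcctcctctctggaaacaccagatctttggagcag
Kdr held 2 matches of GGGCGG, a core of the box bound by SP factors, and 1 of CCGGAA, an extended core of sites for ETS factors, a family active in endothelial cells. Flt1 held 3 of GGGCGG and 0 of CCGGAA. Ly6g6f held 0 of either. None of these 3 windows held ACGTG, the core of hypoxia response elements. Of 27025 RefSeq promoter windows of the same 250 bases, 32.9% held GGGCGG, 12.2% CCGGAA and 16.6% ACGTG. The GC content was 61.6% for Kdr, 70.4% for Flt1 and 52% for Ly6g6f, against a median of 52% over all windows. RefSeq promoter windows were at hand for 7 of the 10 genes.

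Per kilobase of exon, Cldn5 was the highest of the 10 genes and Ly6g6f the lowest in both tissues. In frontal cortex the mean normalised reads per kb over 24 libraries were 1335 ± 781 (SD) for Cldn5 and 776 ± 257 for Vegfa. Pecam1, Flt1 and Cdh5 came next at 178 ± 44.5, 178 ± 28.1 and 178 ± 47.1, which do not differ beyond their spread. Tek followed at 143 ± 32.9, Higd1b at 125 ± 21.2, Nrp1 at 102 ± 45.6 and Kdr at 88.4 ± 21.8, each differing from the next by less than the larger SD of the pair. Ly6g6f was at 11.9 ± 6.82. In hippocampus Nrp1 took the third place at 317 ± 148, and the remaining genes followed in the order Flt1, Pecam1, Cdh5, Tek, Higd1b and Kdr, from 169 ± 21.0 down to 87.6 ± 20.2. Kdr was low beside Flt1, the other VEGF-A receptor.

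Kdr was higher after stress in frontal cortex, in both drug arms. Its normalised read count ran from 444 to 839 with a median of 686 in the 6 non-stressed vehicle libraries. After stress with vehicle it ran from 797 to 1072 with a median of 919. In mice given esomeprazole the lowest, median and highest counts were 441, 627 and 866 without stress and 838, 987 and 1093 with it. Of the 12 stressed libraries, 9 lay above the highest of the 12 non-stressed ones and 12 above their mean, yet the ranges overlapped between 797 and 866. The change averaged over drug arms was 0.59 ± 0.11 on the log2 scale (SE, limma), or 1.5-fold. It was 0.48 in vehicle mice and 0.69 in esomeprazole mice. No gene of the 15040 tested in frontal cortex passed an adjusted p under 0.05 in this comparison (0%, limma), and 3.79% passed 0.05 before adjustment.

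**Figure D1:**
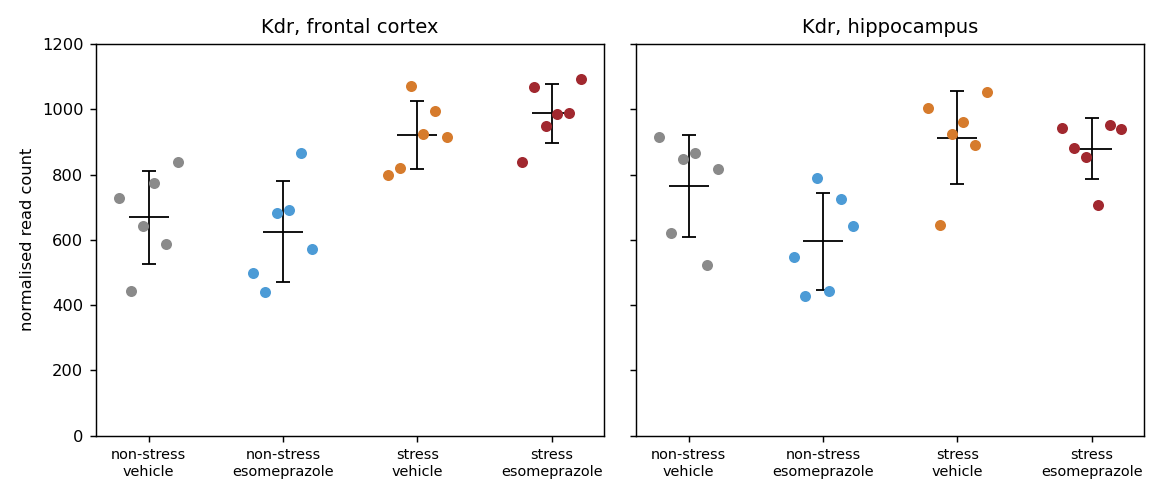
Normalised read count of Kdr in each library (points) by group, with the group mean and SD (bars, n = 6), in frontal cortex on the left and hippocampus on the right. In frontal cortex the 12 stressed libraries lie from 797 to 1093 and the 12 non-stressed ones from 441 to 866; in hippocampus the ranges are 646 to 1054 and 428 to 914.

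Hippocampus, which is not recorded as the tissue in which Kdr was noticed, gave a difference of the same sign that did not pass the test. The members were, however, chosen with earlier results of these data known. The hippocampal libraries came from the same 24 mice as those of frontal cortex, so they are no independent set of animals. The lowest, median and highest counts were 524, 833 and 914 in non-stressed vehicle libraries. Stressed vehicle libraries had 646, 943 and 1054. With esomeprazole they were 428, 594 and 790 without stress and 707, 911 and 953 with stress. Stressed libraries exceeded the highest non-stressed one in 7 of 12 cases, and 11 of 12 exceeded the non-stressed mean. The averaged change was 0.43 ± 0.12 (SE, log2; limma adjusted p = 0.503, unadjusted p = 0.00175), with a 95% interval from 0.18 to 0.68. Within vehicle mice it was 0.27 ± 0.17 (95% interval from -0.09 to 0.62). Within esomeprazole mice it was 0.59 ± 0.17 (from 0.24 to 0.95). The difference of the stress effect between the tissues was -0.16 ± 0.16 (hippocampus minus frontal cortex), with a 95% interval from -0.49 to 0.17. That fit took the 48 libraries as separate, although the mice were shared. Among hippocampal libraries without high striatal markers, Kdr was 0.54 higher after stress (12 non-stressed, 7 stressed), while the class with high markers held 0 non-stressed libraries and gave no value. In frontal cortex Kdr was 0.66 higher among libraries with bulb markers (7 non-stressed, 10 stressed) and 0.49 higher among those with low ones (5 and 2).

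The other receptors and the ligand differed less than Kdr in frontal cortex, and in hippocampus all but Nrp1 did. In frontal cortex Flt1 ran from 1885 to 3172 reads without stress (median 2127) and from 1944 to 3153 with it (median 2513), a log2 change of 0.16 ± 0.099. Its ranges nearly coincided. Tek differed by 0.18 ± 0.14, Vegfa by 0.18 ± 0.23 and the co-receptor Nrp1 by -0.10 ± 0.33, each within 2 SE of 0. In hippocampus Flt1 differed by 0.17 ± 0.084 (limma adjusted p = 0.863), Vegfa by 0.28 ± 0.21 and Tek by 0.24 ± 0.15 (limma adjusted p = 1.00 for each). Nrp1 differed by -0.52 ± 0.31 (limma adjusted p = 1.00), and by -0.09 with the striatal marker score as a covariate. Nrp1 libraries ran from 1265 to 4533 reads without stress and from 690 to 5772 with it, the widest range among these receptors.

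The junction and adhesion genes showed mixed sizes. In frontal cortex Cldn5 ran from 760 to 3975 reads without stress and from 1329 to 5114 with it, overlapping over most of their range, and differed by 0.62 ± 0.27. Cdh5 ran from 482 to 929 and from 648 to 1271, a difference of 0.32 ± 0.14. Pecam1 differed by 0.22 ± 0.14. In hippocampus the same genes differed by 0.21 ± 0.28 (Cldn5), 0.06 ± 0.13 (Cdh5) and 0.09 ± 0.099 (Pecam1), with limma adjusted p = 1.00 for each. With the endothelial score as a covariate the values were 0.61, 0.22 and 0.17, and with DESeq2 that of Cldn5 was 0.04, none of them called. The pericyte gene Higd1b ran from 71.3 to 121 reads without stress and from 92.2 to 139 with it in frontal cortex, 0.20 ± 0.12 apart. In hippocampus it ran from 64.3 to 125 and from 97.1 to 148, 0.32 ± 0.10 apart. Ranges overlapped for every one of these genes. Of the 9 genes tested (all but Higd1b), 0 passed the adjusted threshold in hippocampus by limma, by edgeR or by DESeq2, where limma passed 0.0133% of all genes. At an unadjusted p under 0.05 limma passed 1 of the 9 (Kdr), against 5.9% of all genes.

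**Figure D2:**
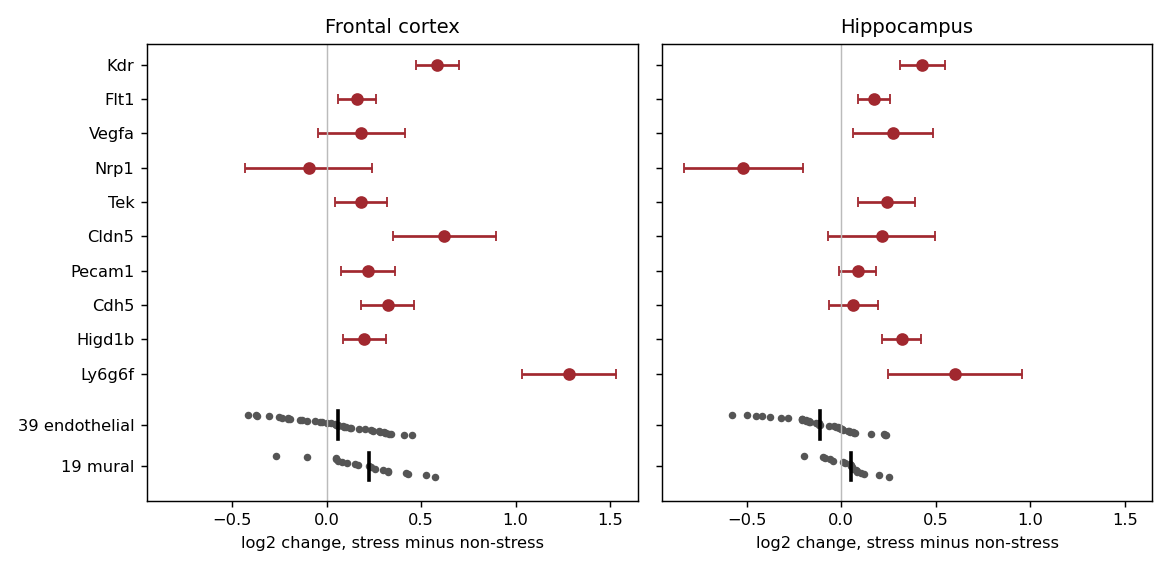
Stress minus non-stress log2 change averaged over the drug arms, with its SE from limma (red, 12 against 12 libraries), for the 10 genes, and below them the changes of 39 other endothelial and 19 other mural genes (grey points) with their medians (black lines). Kdr lies at 0.59 in frontal cortex and 0.43 in hippocampus, to the right of all 39 endothelial points in both panels. Kdr and Ly6g6f were chosen on their stress changes in frontal cortex.

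Kdr was set against a list of 39 other endothelial genes that passed the filter, of 40 listed. In frontal cortex their median change with stress was 0.06, and 23 of 39 were higher, against 46.8% of all genes and a median of -0.02. In hippocampus the median was -0.11, and 13 of 39 were higher, against 47.8% of all genes and a median of -0.01. Kdr was chosen on its change in frontal cortex, so its place above the list there describes that choice. None of the 39 had an upward change as large as that of Kdr in either tissue. In hippocampus downward changes of Ramp2, Slc2a1 and Vwf, which are among the 39, were larger in size. The highest changes of the 39 were 0.45 (the amino acid transporter Slc38a5) in frontal cortex and 0.24 in hippocampus. Among the 4 of largest size in frontal cortex were also Palmd at -0.41, the adhesion molecule Icam2 at 0.41 and the glucose transporter Slc2a1 at -0.37. In hippocampus these were Ramp2, a receptor-modifying protein of the adrenomedullin system, at -0.58, Slc2a1 at -0.50, von Willebrand factor Vwf at -0.45 and the lipid transporter Mfsd2a at -0.42. None of the 39 passed the adjusted threshold (limma); unadjusted, 2 higher and 1 lower passed 0.05 in frontal cortex, and 1 and 5 in hippocampus. Over all genes 385 of 15040 in frontal cortex and 654 of 15062 in hippocampus had a larger upward change than Kdr.

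The level of Kdr relative to these genes was taken in each library as its log2 value minus the mean log2 value of the 39. In frontal cortex it ran from -0.32 to 0.30 without stress in vehicle libraries and from 0.39 to 0.56 with stress. In esomeprazole libraries it ran from -0.51 to 0.28 without stress and from 0.45 to 0.85 with it. All 12 stressed libraries lay above all 12 non-stressed ones, with means of 0.56 ± 0.16 (SD) and 0.02 ± 0.25, 0.54 apart. Kdr was chosen on its stress change in this tissue, so the separation describes the choice and carries no test. The share of all genes that separate the groups when set against the same mean was not counted. In hippocampus the means were 0.51 ± 0.18 and -0.02 ± 0.38, 0.53 apart, and 7 of 12 stressed libraries lay above the highest non-stressed one. All 12 exceeded the non-stressed mean. With the endothelial score as a covariate in the fit over all genes, the change of Kdr was 0.54 in frontal cortex and 0.48 in hippocampus (limma adjusted p = 0.346). In both tissues the value was close to that without the covariate.

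**Figure D3:**
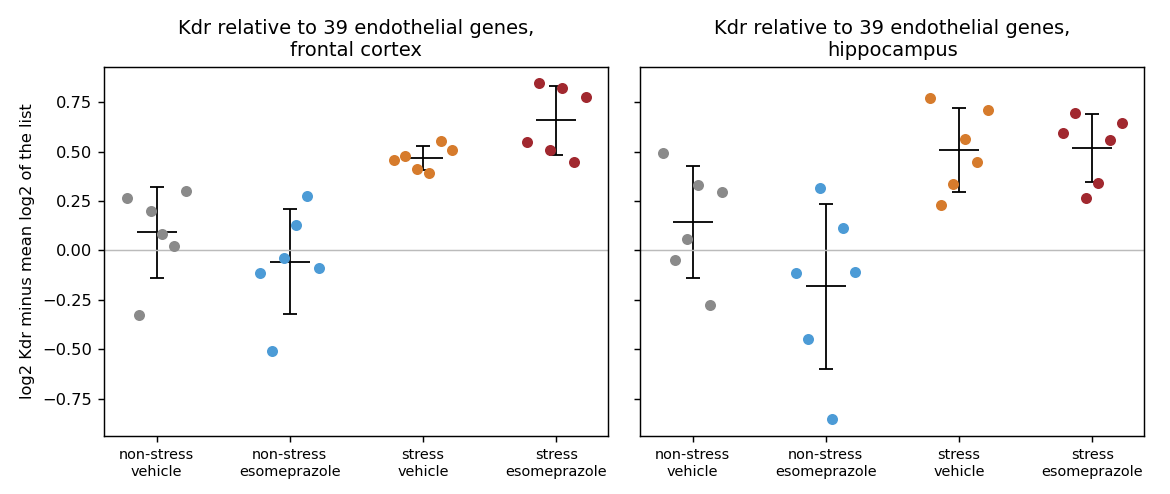
Log2 value of Kdr minus the mean log2 value of 39 other endothelial genes in each library (points) by group, with mean and SD (n = 6). Kdr was chosen on its stress change in frontal cortex. In frontal cortex the stressed libraries lie from 0.39 to 0.85 and the non-stressed ones from -0.51 to 0.30; in hippocampus the ranges, 0.23 to 0.77 and -0.85 to 0.49, overlap.

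Against single vessel genes the difference depended on the gene chosen. Relative to Flt1, Kdr was higher after stress by 0.42 in frontal cortex and 0.26 in hippocampus. Relative to Tek the values were 0.40 and 0.19, relative to Pecam1 0.37 and 0.34, and relative to Cdh5 0.26 and 0.36. Relative to Cldn5 they were -0.04 and 0.22, so that in frontal cortex Kdr and Cldn5 differed by like amounts. Relative to the mean of 19 mural genes they were 0.38 and 0.39. Relative to the pericyte gene Higd1b they were 0.39 and 0.11, the latter the smallest hippocampal value of the references named here.

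Other vessel lists give the setting of these values. Over all genes 46.8% were higher in frontal cortex and 47.8% in hippocampus. The 19 tested mural genes had a median change of 0.23 in frontal cortex, with 17 higher, and 0.05 in hippocampus, with 14 higher. Those of largest size in frontal cortex were Vtn at 0.57 and the smooth muscle actin gene Acta2 at 0.53. The lists share genes: Tie1 and Ptprb of the next one and the hypoxia target Slc2a1 are also in the endothelial list. Angpt2, Pgf and Dll4 likewise recur across the lists below. A list of 14 genes covered VEGF, angiopoietin and related semaphorin signalling (ligands, receptors and partners such as Plxnd1 and Ptprb). Of these 14, 7 were higher in frontal cortex (median -0.05) and 5 in hippocampus (median -0.08). Among them Figf (VEGF-D) differed by -0.83 and Angpt2, an angiopoietin made by endothelial cells, by 0.48 in frontal cortex. Genes known to respond to VEGF or to mark sprouting tip cells had a median of 0.33 in frontal cortex with 13 of 17 higher. The largest change there was that of the chemokine receptor Cxcr4 at 0.98 ± 0.54 (SE), within 2 SE of 0. Nid2 was at 0.56 ± 0.19 and Mcam at 0.44 ± 0.098, both beyond 2 SE of 0. In hippocampus the median was -0.08 with 5 of 14 higher. Cxcr4 was at -0.46 ± 0.22 there and Dusp5 at -0.42 ± 0.23. Mcam and Nid2 were higher in hippocampus too, at 0.37 ± 0.13 and 0.24 ± 0.20. Notch genes of vessels had medians of 0.19 and 0.05, with 8 of 12 higher in each tissue. Their leading gene in both was Heyl, a Notch target, at 0.86 ± 0.37 and 0.43 ± 0.26 (SE). Hypoxia targets, whose regulators also act on Vegfa, had medians of -0.05 and 0.04, with 8 and 10 of 17 higher. No gene of these lists passed the adjusted threshold in either tissue (limma).

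Markers of the meninges lay higher after stress in frontal cortex. Of 20 meningeal fibroblast genes 17 were higher, with a median of 0.46, and 11 passed an unadjusted p of 0.05 (limma). Over all genes 46.8% were higher and 3.79% passed. None of the 20 passed the adjusted threshold (limma). Their mean log2 deviation ran from -0.87 to 0.21 in non-stressed and from -0.38 to 0.66 in stressed libraries. In hippocampus 9 of 20 were higher (median -0.04). The bulb markers had a median of 1.5 in frontal cortex with 14 of 14 higher, and the striatal markers 1.44 in hippocampus with 15 of 15 higher. In hippocampus 47.8% of all genes were higher. The part of the meningeal, bulb and striatal markers in the values of Kdr was not tested.

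Ly6g6f had the largest change of the 10 genes, at very low counts. In frontal cortex the 6 non-stressed vehicle libraries held 3.28, 3.52, 4.02, 6.72, 6.89 and 7.07 normalised reads, and the 6 stressed ones 12.0, 15.6, 18.7, 20.4, 20.7 and 32.4. These groups did not overlap, which held for 0.133% of all genes in that comparison, and for 0.0864% in this direction. Ly6g6f was chosen on its stress change in this tissue, so these shares describe the choice. In esomeprazole mice the counts ran from 2.22 to 16.8 without stress and from 9.63 to 25.0 with it, overlapping. The averaged change was 1.28 ± 0.25 (SE, log2), and values on this scale with 1 read added understate the change of so low a gene. Among libraries with low bulb markers (5 non-stressed, 2 stressed) the counts ran from 2.22 to 6.89 and from 9.63 to 12.0, 1.13 apart. Among the others (7 and 10) they ran from 3.28 to 16.8 and from 14.9 to 32.4, 1.02 apart. The part of the bulb markers in these values was not tested. In hippocampus the ranges were 2.47 to 68.2 and 14.4 to 76.0, and the change was 0.60 ± 0.35 (limma adjusted p = 1.00). Of 13 platelet markers 6 passed the filter, and their median change was -0.03 in frontal cortex and -0.01 in hippocampus, with 3 of 6 higher in each. Their mean log2 deviation ran from -0.54 to 1.01 in non-stressed and from -0.89 to 0.59 in stressed libraries of frontal cortex.

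**Figure D4:**
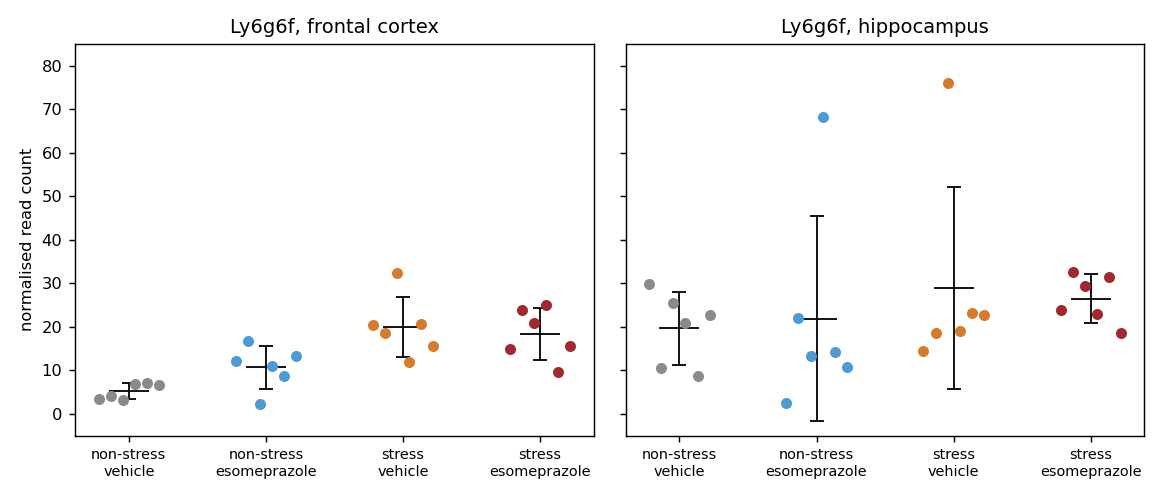
Normalised read count of Ly6g6f in each library (points) by group, with mean and SD (n = 6). Ly6g6f was chosen on its stress change in frontal cortex. In frontal cortex stressed vehicle libraries (12.0 to 32.4) lie above all non-stressed vehicle ones (3.28 to 7.07); in hippocampus a library of 68.2 and another of 76.0 stand apart from the rest.

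Several of these genes differed between libraries of low and high no-feature share. Hippocampal libraries under 12% held 1990 to 4035 Cldn5 reads and all others 673 to 1737, without overlap, 1.43 apart on the log2 scale. In frontal cortex Pecam1 ran from 1300 to 1855 under 12% and from 725 to 1257 from 12% up, Cdh5 from 836 to 1271 and from 482 to 824, and Nrp1 from 269 to 524 and from 619 to 1599. These 3 genes did not overlap between the classes there. The share of all genes that separated in this way was not counted in either tissue. The separation is therefore not read as particular to these genes. Vegfa was lower in the libraries under 12%, by 0.99 in hippocampus and 0.96 in frontal cortex, and Tek by 0.57 and 0.42. Kdr differed little, being 0.05 higher under 12% in hippocampus and 0.10 higher in frontal cortex. Its stress difference was 0.42 under 12% and 0.44 from 12% up in hippocampus, and 0.70 and 0.53 in frontal cortex. For Ly6g6f the stress difference was 0.38 and 0.80 in hippocampus, and 1.72 and 1.07 in frontal cortex.

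**Figure D5:**
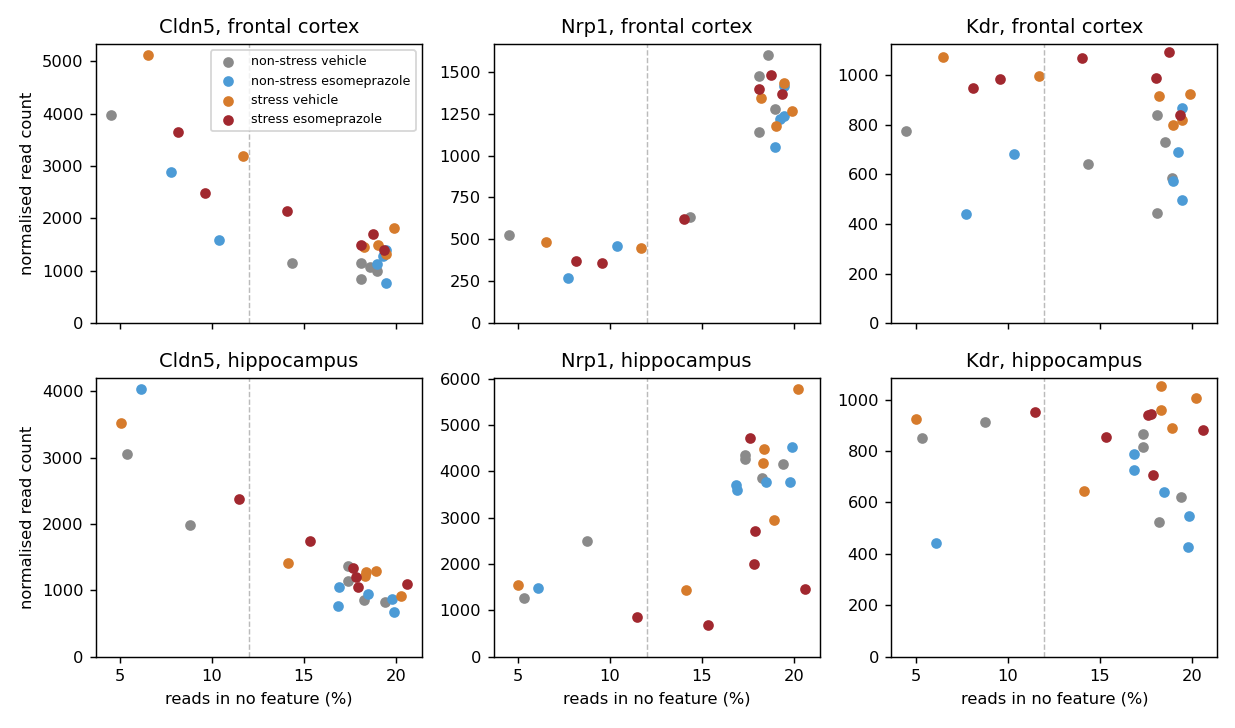
Normalised read count of Cldn5, Nrp1 and Kdr (columns) against the percentage of reads in no feature, 1 point per library, coloured by group, in frontal cortex (top) and hippocampus (bottom), with a dashed line at 12%. Cldn5 is high and Nrp1 low left of the line, while Kdr spans a like range on both sides.

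The genes whose pattern was most like that of Kdr were sought over 24 libraries in each tissue after removal of group means, by Pearson's r on log2 values. In hippocampus these were Slco1c1, the thyroxine transporter of brain endothelium, with r = 0.759, then Prr32 with 0.736, the Wnt receptor Fzd7 with 0.717, the intermediate filament gene Nes with 0.696 and St6galnac2 with 0.696. In frontal cortex they were the chemokine Cxcl12 with 0.771, Cd93 with 0.750, Emcn with 0.732, Slco1c1 with 0.700 and Higd1b with 0.662. Cd93 and Emcn are surface proteins of endothelial cells. Cd93, which is outside the list of 39, was higher after stress by 0.51 in frontal cortex, more than any gene of that list, and Emcn by 0.21. Among the other members Flt1 had r = 0.628 in hippocampus and 0.566 in frontal cortex, Tek 0.456 and 0.433, and Cldn5 0.033 and 0.300. Vegfa had -0.039 and -0.016. These values share libraries, depth and tissue content, and are given as a description.

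Esomeprazole changed none of the 9 tested genes past the threshold in either tissue, by limma, edgeR or DESeq2. Over both stress arms, the changes of the 9 genes tested ran in hippocampus from -0.38 ± 0.31 (Nrp1) to 0.25 ± 0.21 (Vegfa), and in frontal cortex from -0.29 ± 0.33 (Nrp1) to 0.33 ± 0.25 (Ly6g6f), with limma adjusted p = 1.00 or 0.999 for each named. The hippocampal value of Nrp1 was -0.09 with the striatal marker score as a covariate and -0.55 with the no-feature covariate. Kdr differed by -0.21 ± 0.12 in hippocampus (limma adjusted p = 1.00), and by -0.02 with the deposited scaling. In frontal cortex its difference was 0.00 with an SE of 0.11, and a 95% interval from -0.24 to 0.24. In non-stressed hippocampus Kdr was lower with the drug by 0.37 ± 0.17 on the log2 scale, with 1 of 6 treated libraries above the mean of the vehicle ones (limma adjusted p = 0.999). No gene of the whole table passed the adjusted threshold in these comparisons (0%, limma); unadjusted, 0.724% did in hippocampus and 1.09% in frontal cortex, with 0 of the 9 genes in each. The change of the stress effect of Kdr with the drug was 0.33 ± 0.24 in hippocampus (limma adjusted p = 1.00).

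Between the tissues, Nrp1 and Ly6g6f differed. The 48 libraries were fitted as separate, although 24 mice gave both tissues. Whether equal numbers mark a mouse is not stated. With group and number taken as the mouse, Nrp1 differed by 1.62 (limma adjusted p = 2.15e-06) and Ly6g6f by 0.79 (limma adjusted p = 0.00547). Nrp1 was higher in hippocampus by 1.62 ± 0.24 on the log2 scale, or 3.07-fold (limma adjusted p = 4.38e-07), with 690 to 5772 reads there and 269 to 1599 in frontal cortex. Ly6g6f was higher in hippocampus by 0.79 ± 0.22, or 1.73-fold (limma adjusted p = 0.00429). That call was lost without the hippocampal libraries of high striatal markers and the frontal cortex libraries of low bulb markers (0.64, limma adjusted p = 0.111). The 2 genes called of the 9 tested stand beside 25.7% of all 14844 genes. The others did not pass: Cldn5 differed by -0.32 ± 0.20 (limma adjusted p = 0.282), Vegfa by -0.16 ± 0.16 and Kdr by -0.01 ± 0.082, with a 95% interval for Kdr from -0.17 to 0.16. Cldn5 passed under 3 of the other settings, with -0.27 for the no-feature covariate (limma adjusted p = 0.00189), -0.43 for the endothelial score (limma adjusted p = 0.0226) and -0.26 without libraries under 12% (limma adjusted p = 0.0204).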

How the data were processed

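Stranded poly(A) RNA libraries of 24 hippocampal and 24 frontal cortex samples were read as deposited. The submitters' processing notes name STAR, HTSeq, DESeq2 and mm10 without role or version. A deposited value is a signal, per the deposited values a read count divided by 1 factor per library; whole reads were recovered (100% of values, tolerance 0.02). Library sizes leave out the 4 leading entries, which are read classes. Reads were scaled by TMM (edgeR 4.0.16), kept by filterByExpr (minimum count 10) and tested in limma 3.58.1 (trended) as log2(normalised reads + 1), fitting 1 mean per group, p adjusted by Benjamini-Hochberg over all genes (15062 in hippocampus, 15040 in frontal cortex, 14844 together), threshold 0.05. The members and lists were chosen with earlier results of these data known. All 10 members were named. From the lists up to 4 genes of largest absolute change were eligible, and 5 genes per tissue by likeness to Kdr (mean log2 CPM of at least 1). The 12 alternatives are given in the closing section. Normalised read counts in the text are TMM-scaled reads. The procedure was tested on simulated data. A library's no-feature share has a 95% interval of at most 0.013 points to each side, for counting error only. Gene annotation is GENCODE vM21 on mm10. R 4.3.3, DESeq2 1.42.0, the data.table package, version 1.17.8,, Python 3.11.15, numpy 2.4.6, pandas 2.3.3, scipy 1.17.1 and matplotlib 3.10.9 were used.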

Additional observations from a re-analysis of the deposited data

Results flagged for a closer look

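In each of 80 sets of 6 libraries (10 genes in 8 groups), the gap of the highest or lowest library to its nearest neighbour was compared with the range of the set, and 9 stood apart; chance alone gives about 1 in 20. In hippocampus, library 4 of the non-stressed esomeprazole group held 1477 Nrp1 reads (others 3600 to 4533), 269 Tek reads (others 556 to 691), 4035 Cldn5 reads (others 673 to 1046) and 68.2 Ly6g6f reads (others 2.47 to 21.95). Its no-feature share was 6.12%. Library 3 of the stressed vehicle group, with a share of 5.03%, held 3524 Cldn5 reads (others 918 to 1415), 1037 Cdh5 reads (others 571 to 687) and 76.0 Ly6g6f reads (others 14.4 to 23.2). In frontal cortex, library 4 of the non-stressed vehicle group, with 4.50%, held 3975 Cldn5 reads (others 847 to 1156). Library 6 of that group, with 18.1%, held 3172 Flt1 reads (others 1947 to 2285). The part of the no-feature share in these values was not tested. Kdr stood apart in none of its 8 groups.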

How the results depend on the processing

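Over 12 alternative settings (median-of-ratios scaling among them) the stress change of Kdr ran from 0.54 to 0.65 in frontal cortex and from 0.39 to 0.53 in hippocampus, where its adjusted p ran from 0.0958 to 1. Its change relative to the endothelial genes ran from 0.48 to 0.56 and from 0.48 to 0.60. In frontal cortex Kdr and Ly6g6f were chosen on their stress changes, so calls of these genes there are no test. The number of the tested genes called for stress there went from 0 to 2 with DESeq2 (Kdr, Ly6g6f). It went to 3 when the no-feature percentage was a covariate (with Cldn5), and in vehicle mice from 0 to 1 with DESeq2 (Ly6g6f). Between tissues it went from 2 to 4 with the no-feature covariate and without libraries under 12% (adding Cldn5 and Vegfa), to 3 with the endothelial score (adding Cldn5), and to 1 without the rarer neighbouring-tissue class; the cause was not tested. All genes called for stress in hippocampus were 2 with limma, 7 with edgeR, 127 with DESeq2, 14 with the no-feature covariate, 12 without libraries under 12%, and 0 with the neighbouring-tissue score or without its rarer class. In frontal cortex they were 0, 1 with edgeR, 10 with DESeq2 and 24 with the no-feature covariate. Between tissues they were 3817, then 7439 with that covariate and 6602 without libraries under 12%. Within arms DESeq2 called 68 genes for stress in esomeprazole hippocampus and 1 in vehicle hippocampus, against 0 with limma. Nrp1 in frontal cortex ran from -0.21 to 0.05 for stress. In hippocampus stress values ran from -0.83 to -0.09 for Nrp1, 0.04 to 0.61 for Cldn5, 0.04 to 0.22 for Cdh5, 0.05 to 0.17 for Pecam1, 0.11 to 0.38 for Vegfa and 0.40 to 0.97 for Ly6g6f, none called. The esomeprazole effect of Kdr in frontal cortex, 0.00, turned above 0 in 8 settings: 0.0013 with the deposited scaling, 0.00010 with a pseudocount of 5, 0.00021 without a low-count filter, 0.0020 with edgeR, 0.035 and 0.024 with the neighbouring-tissue and endothelial scores, 0.12 without libraries under 12% and 0.032 without the rarer class. That of Vegfa in hippocampus turned to -0.057 without libraries under 12%. Over all 10 genes 12 of 120 esomeprazole values in hippocampus and 18 of 120 in frontal cortex had the other sign. None of those of the tested genes was called. The deposited scaling moved the median of all genes by 0.19 in the hippocampal esomeprazole comparison. Equal numbers did not meet the rule for pairing (every same-number correlation over 0.1): these ran from -0.80 to 0.88 in hippocampus (median 0.30, against 0.32 for other numbers) and from -0.90 to 0.89 in frontal cortex (median 0.44, against 0.09), and 5 and 7 of 24 libraries correlated best with their own number. Between the tissues, libraries of the same group and number correlated from -0.83 to 0.92 (24 pairs, median 0.43). With the replicate number as a block, 0 of the tested genes were called for stress in either tissue, as without it. Genes called for stress in hippocampus then went from 2 to 1. Low counts limit Ly6g6f.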
